A study of Mus musculus with 12 samples.

Results

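The 10 genes described here are made by developing and mature neutrophils: *Mpo*, *Ms4a3*, *Cebpe*, *Ltf*, *Camp*, *Ngp*, *Lcn2*, *S100a8*, *S100a9* and *Retnlg*. They were chosen by name from the 23284 gene names measured in sorted osteoblasts because their levels were higher in libraries from mice given parathyroid hormone (PTH). The vehicle and PTH values of these genes are therefore a description, and no test was made of them in that contrast. All 10 were found in the 12 libraries of the series, and all 10 reached the level needed for the test across genes in sorted osteoblasts, through the PTH libraries alone in the case of *Cebpe*.

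The series asked how osteoblasts respond to intermittent PTH and what secretory leukocyte protease inhibitor (*Slpi*) does in an osteoblast cell line. The first experiment sorted 7AAD-Lin-CD45-ECFP+ cells, which are live cells without blood lineage markers or CD45, from the crushed bones of Col2.3-ECFP mice. In these mice a fragment of the type I collagen promoter drives the cyan fluorescent protein ECFP in mature osteoblasts. The females, 12 weeks old, were injected with vehicle or with 40 µg/kg of the active fragment PTH (1-34) daily, 5 days a week over 3 weeks, and bones were taken 24 h after the last injection (3 libraries per group). The second experiment used MC3T3-E1, a clonal mouse osteoblastic line grown without marrow, as puromycin-selected pools carrying the empty retroviral vector pMX-IRES-Puro (mock) or the same vector with *Slpi* (3 libraries per group). Levels are FPKM values, that is fragments scaled to transcript length and to the reads mapped in each library, so genes of different length can be set side by side.

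Neutrophils mature in the bone marrow through ordered stages, and each stage fills its own kind of granule. Promyelocytes make azurophil granules with myeloperoxidase and serine proteases, myelocytes then make specific granules with lactoferrin and cathelicidin under the control of the transcription factor C/EBP epsilon, and late cells carry large amounts of the S100A8 and S100A9 proteins. Osteoblasts lie on the bone surface next to this developing pool. The order of the genes below follows these stages.

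The levels of gene expression in 1 library, PTH replicate 3, stood apart from those of the other PTH replicates. Pearson's r of log2(FPKM + 1) between replicates was 0.908 to 0.946 in the PTH group and 0.952 to 0.962 in the vehicle group. PTH replicate 3 had 10795 genes at an FPKM of at least 1, against 11463 to 11746 in the other 5 sorted libraries. Read depth is not known from FPKM. The steps between low values put the relative depth of the sorted libraries at 0.787 to 1.40 times that of vehicle replicate 1. The osteoblast markers *Bglap*, *Sp7*, *Runx2*, *Alpl*, *Ibsp*, *Phex*, *Pth1r* and *Ifitm5* had median levels of 141 to 157 FPKM in vehicle, 165, 143 and 216 FPKM in PTH replicates 1, 2 and 3, and 21.97 to 67.4 FPKM in MC3T3-E1 cells. *Col1a2*, a ninth marker, was listed at 0 in 4 sorted libraries and at 24544 and 26655 FPKM in vehicle replicates 2 and 1, so an exact 0 in these files may be a failed estimate.

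The start regions of 5 members, at least 1 from each granule stage, are shown because the members moved together across libraries and because the list includes a C/EBP factor. All 5 hold the C/EBP element marked below, which not every member does. Letters are those of RefSeq on GRCm38.p6, read 5′ to 3′ along the gene's own strand and ending before the gene body, and capitals mark TTNNGNAA, a core C/EBP element, on either strand.
Ms4a3: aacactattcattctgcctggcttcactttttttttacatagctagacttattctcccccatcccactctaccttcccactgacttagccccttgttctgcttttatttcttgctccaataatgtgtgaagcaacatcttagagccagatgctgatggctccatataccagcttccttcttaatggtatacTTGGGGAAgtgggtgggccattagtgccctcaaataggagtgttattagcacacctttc
Ltf: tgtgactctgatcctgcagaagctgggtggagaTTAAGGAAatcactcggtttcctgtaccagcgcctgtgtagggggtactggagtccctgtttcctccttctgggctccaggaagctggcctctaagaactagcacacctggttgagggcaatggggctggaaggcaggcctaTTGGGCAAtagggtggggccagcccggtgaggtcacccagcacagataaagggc
Ngp: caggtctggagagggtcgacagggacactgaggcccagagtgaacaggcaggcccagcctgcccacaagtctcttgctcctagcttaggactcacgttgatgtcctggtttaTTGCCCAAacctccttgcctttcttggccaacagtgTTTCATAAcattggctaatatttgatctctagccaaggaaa
S100a9: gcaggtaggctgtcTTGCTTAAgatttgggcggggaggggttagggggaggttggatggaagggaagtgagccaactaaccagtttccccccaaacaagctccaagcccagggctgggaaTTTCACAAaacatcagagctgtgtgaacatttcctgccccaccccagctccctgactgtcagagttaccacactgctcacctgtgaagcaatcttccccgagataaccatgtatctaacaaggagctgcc
Retnlg: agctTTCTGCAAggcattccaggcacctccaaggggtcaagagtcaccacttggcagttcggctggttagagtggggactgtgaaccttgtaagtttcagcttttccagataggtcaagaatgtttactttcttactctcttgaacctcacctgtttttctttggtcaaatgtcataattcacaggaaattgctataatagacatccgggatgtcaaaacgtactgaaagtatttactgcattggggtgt
The *Ms4a3* region lies at chr19:11640852-11641101 on the minus strand and has 1 match, 59 bases before the RefSeq start. The *Ltf* region lies at chr9:111019042-111019270 on the plus strand, with matches beginning 217 and 75 bases before the start. The *Ngp* region lies at chr9:110419558-110419746 on the plus strand, and shows 2 matches, 138 and 102 bases before the start, while another at 11 bases is outside the letters printed. The *S100a9* region at chr3:90695722-90695971 on the minus strand has matches at 236 and 130 bases. The *Retnlg* region at chr16:48872358-48872607 on the plus strand has 1 match at 246 bases. Within the 250 bases before the RefSeq start, 7 of the 9 members with an entry held TTNNGNAA, as did 36.8% of all 32851 windows in the table. *Mpo* and *Camp*, not printed here, were the members with an entry but no match. GAGGAA, the core of the element bound by the myeloid factor PU.1, was in 4 of the 9 members and in 23.3% of all windows. No overlap between the 2 motifs was considered, and a match is a description of letters and not a binding site.

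Some members are neighbours in the genome (GENCODE M21 annotation, GRCm38). *S100a8* at chr3:90668978-90670035 and *S100a9* at chr3:90692632-90695721 are 22.6 kb apart and are transcribed from opposite strands. *Camp*, *Ngp* and *Ltf* lie in that order on chromosome 9 between 109847379 and 111042767, with 570.1 kb and 596 kb between them. *Mpo* is on chromosome 11, *Ms4a3* on 19, *Cebpe* on 14, *Lcn2* on 2 and *Retnlg* on 16. The levels below are of whole genes, so they do not say from which exons the fragments came.

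Of the members of the azurophil stage, *Mpo* encodes myeloperoxidase, the enzyme that makes hypochlorous acid. Its level was 5.95, 8.07 and 6.30 FPKM in the 3 vehicle libraries, and PTH replicates 1 to 3 had 61.9, 42.1 and 9.16 FPKM. The groups did not overlap, but PTH replicate 3 lay only 1.13 times above the highest vehicle library. *Ms4a3*, a membrane protein gene expressed in granulocyte and monocyte precursors, had 0.584, 1.48 and 0.291 FPKM in vehicle and 10.8, 9.78 and 2.08 FPKM in PTH. PTH replicates 1 and 2 were 13.7 and 12.4 times the vehicle mean of *Ms4a3*, the largest ratios of any member in those libraries. On the log2(FPKM + 1) scale the groups differed by 1.97 for *Mpo* and 2.09 for *Ms4a3*, as a description without a test.

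*Cebpe*, the gene for C/EBP epsilon, had the lowest mean of the members in both groups. It had 0.152, 0 and 0.340 FPKM in vehicle and 1.77, 1.57 and 0.433 FPKM in PTH. The groups did not overlap, and PTH replicate 3 was 1.27 times the highest vehicle library. At these levels the pseudocount of 1 compresses differences: the log2 difference was 0.91 with a pseudocount of 1 and 2.41 with 0.1.

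The genes for specific granule proteins came next. *Ltf*, which encodes the iron-binding protein lactoferrin, had 6.79, 7.996 and 6.82 FPKM in vehicle and 30.2, 27.2 and 11.1 FPKM in PTH. *Ngp*, neutrophilic granule protein, had 36.3, 38.8 and 34.6 FPKM in vehicle and 167, 153 and 59.7 FPKM in PTH. For both genes the groups did not overlap, and PTH replicates 1 and 2 were close to each other. *Lcn2*, lipocalin 2, which binds bacterial siderophores, had 11.4, 15.4 and 16.1 FPKM in vehicle and 59.8, 56.5 and 20.2 FPKM in PTH. *Camp*, the cathelicidin gene, had 21.6, 33.0 and 23.0 FPKM in vehicle and 148, 114 and 32.5 FPKM in PTH. *Camp* was the only member whose groups overlapped, since PTH replicate 3 was 0.985 times vehicle replicate 2. The log2 differences of these 4 genes were 1.43 for *Ltf*, 1.63 for *Ngp*, 1.47 for *Lcn2* and 1.65 for *Camp*.

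*S100a8* and *S100a9*, both late, were the most abundant members in all 6 sorted libraries. They encode the subunits of calprotectin, the main calcium- and zinc-binding protein of neutrophil cytosol. *S100a8* had 133, 177 and 171 FPKM in vehicle and 922, 724 and 252 FPKM in PTH. *S100a9* had 140.3, 168 and 162 FPKM in vehicle and 817, 751 and 277 FPKM in PTH. In PTH replicate 1 they ranked 58 and 68 among all 23284 genes, and in the vehicle libraries they ranked between 277 and 366. *Retnlg*, resistin-like gamma, had nearly equal vehicle levels of 12.9, 12.9 and 12.9 FPKM, and 76.9, 53.3 and 29.3 FPKM in PTH. PTH replicate 3 exceeded the highest vehicle library 2.27-fold for *Retnlg*, further than for any other member. The log2 differences were 1.79 for *S100a8*, 1.82 for *S100a9* and 1.86 for *Retnlg*.

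**Figure D1:**
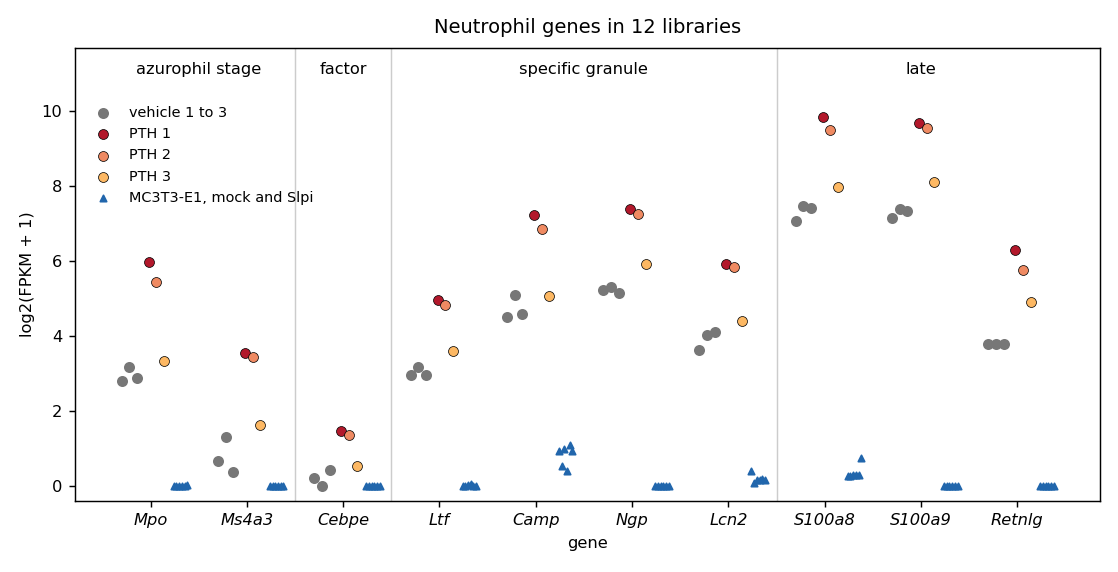
Level of each member, as log2(FPKM + 1), in every library, with genes ordered by granule stage from left to right. Grey points are the 3 vehicle libraries, red to yellow points PTH replicates 1 to 3, and blue triangles the 6 MC3T3-E1 libraries. The PTH points fall in the order 1, 2, 3 for every gene, and *Camp* is the one gene where PTH replicate 3 falls below a vehicle library.

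In all, 9 of the 10 members had groups that did not overlap, with every PTH value the higher. The same held for 19.5% of the 13004 genes tested in sorted osteoblasts, and nothing is read from the difference because the members were picked on this contrast. The median log2 difference of the members was 1.72, and 2.27 without PTH replicate 3, beside a median of 0.0066 over all genes tested. The summed level of the 10 members was 422 ± 47.7 FPKM in vehicle and 1640.2 ± 840 FPKM in PTH (SD, n = 3 each). These sums were 0.0857% to 0.109% of all FPKM in vehicle, and reached 0.554%, 0.450% and 0.150% in PTH replicates 1 to 3. In bulk libraries, fewer or more cells of a type and less or more RNA per cell cannot be told apart.

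Some members kept nearly fixed proportions to each other across the sorted libraries, and others did not. *S100a8* and *S100a9* together were 74.1% to 76.8% of the summed member FPKM in all 6 sorted libraries. The ratio of *S100a8* to *S100a9* was 0.951 to 1.06 in vehicle and 0.907 to 1.13 in PTH, so neither subunit gene was consistently the higher. *Ltf* was 0.187 to 0.206 times *Ngp* in vehicle and 0.178 to 0.186 times in PTH. *Camp* was 0.596 to 0.852 times *Ngp* in vehicle and 0.891, 0.746 and 0.545 times in PTH replicates 1 to 3. *Mpo*, by contrast, was 3.90% to 4.80% of *S100a9* in vehicle, and PTH replicates 1 to 3 had 7.58%, 5.61% and 3.30%. The proportion of *Mpo* was thus above the vehicle range in PTH replicates 1 and 2 and below it in replicate 3. *Ms4a3* was 0.180% to 0.881% of *S100a9* in vehicle. It was 1.32% and 1.30% in PTH replicates 1 and 2, and 0.750% in replicate 3, inside the vehicle range.

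The gap between the PTH libraries was widest for the early genes. PTH replicate 1 exceeded replicate 3 by 6.76-fold for *Mpo*, 5.18-fold for *Ms4a3* and 4.07-fold for *Cebpe*. Among specific granule genes the ratio was 4.56 for *Camp*, 2.96 for *Lcn2*, 2.79 for *Ngp* and 2.72 for *Ltf*. Among late genes it was 3.66 for *S100a8*, 2.95 for *S100a9* and 2.63 for *Retnlg*. *Camp* exceeded *Cebpe* on this measure, so the order by stage was not strict.

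**Figure D2:**
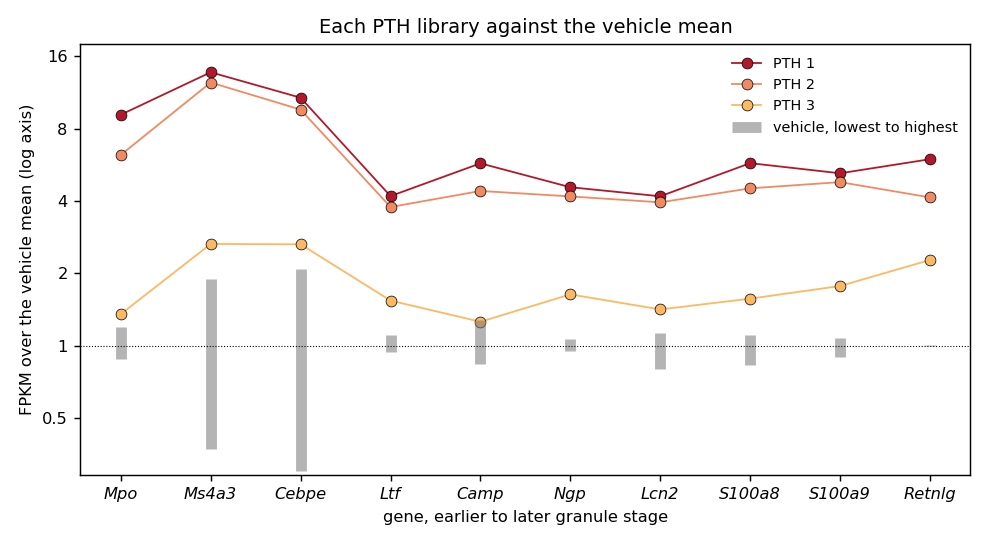
FPKM in each PTH library divided by the mean of the 3 vehicle libraries (log axis), for each member in order of granule stage; lines only join the points of a library. Grey bars span the lowest to the highest vehicle library, and that of *Cebpe* runs off the axis because vehicle replicate 2 is at 0. *Mpo*, *Ms4a3* and *Cebpe* stand at 6.21 to 13.7 times the vehicle mean in PTH replicates 1 and 2, above the 3.77 to 5.97 times of the later genes.

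Stage means were taken per library, as the average over a stage's genes of log2(FPKM + 1) minus the vehicle mean. The azurophil-stage pair was shifted by 2.90, 2.56 and 0.62 in PTH replicates 1, 2 and 3. The 4 specific granule genes were shifted by 2.15, 1.97 and 0.52, and the 3 late genes by 2.46, 2.13 and 0.87. The early minus late difference was 0.44 and 0.43 in PTH replicates 1 and 2 and -0.25 in replicate 3. In the vehicle libraries the same difference ran from -0.30 to 0.29, so the value of PTH replicate 3 lay within the vehicle spread and those of replicates 1 and 2 lay just beyond it. The sign in PTH replicate 3 turned to 0.10 with a pseudocount of 0.1 and to 0.16 after quantile normalization. With a pseudocount of 0.1 the values of replicates 1 and 2 became 1.03 and 1.01, as *Ms4a3* then weighed more. On the lists of other neutrophil genes given below, with a pseudocount of 1, the early genes were shifted by 1.10, 0.76 and -0.25 in PTH replicates 1, 2 and 3. The late genes of those lists were shifted by 0.98, 0.96 and 0.35. There the early shift was the larger in PTH replicate 1 alone.

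The other neutrophil genes on the lists of each stage were not used to choose the members, and their rows in the limma fit over all 13004 genes are given. They come from the same libraries and were listed with earlier results of these data known. Their counts are therefore a description and not independent evidence. A gene was called when it differed at least 2-fold at a Benjamini-Hochberg adjusted p under 0.05. Of the 33 genes tested of 36 listed, 6 were called higher with PTH and none lower, beside 0.869% and 3.78% of all genes. At least 2-fold at an unadjusted p under 0.05, 12 were higher and 0 lower, beside 1.24% and 4.35% of all genes. Their median log2 fold change was 0.87. A gene could enter the fit through the libraries of 1 group alone, which limits what these counts and the median show. Of the genes called, *Csf3r* and *Clec4d* entered through PTH libraries alone, with at most 0.677 and 0.882 FPKM in vehicle. The same held for *Fpr1*, *Clec4e*, *Padi4*, *Itgb2l*, *Olfm4* and *Lrg1*, which were not called. Without vehicle replicate 1 or vehicle replicate 2, 0 of these genes were called, but 11 and 10 still differed at least 2-fold at an unadjusted p. Over all genes the number called higher then dropped from 113 to 1 and 0 as well. Without PTH replicate 1, 3 of these genes were called higher, whereas 17 of 32 were without PTH replicate 3. Over all genes the number called higher was 73 and 179 in these 2 settings.

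Among the 8 other azurophil-stage genes, none was called by limma (2 higher and 0 lower at least 2-fold at an unadjusted p), and the median log2 fold change was 0.068. Of the 8, 2 were lower without overlap, but no share of all genes is given for that, so nothing is read from this count. Only 1 was higher without overlap, beside 19.5% of all genes tested. PTH replicates 1 and 2 were both above the highest vehicle library for 3 of the 8, beside 23.9% of all genes tested. Those 3 were granule proteases, which also had the largest changes of the list. *Elane*, neutrophil elastase, had 6.59, 6.98 and 5.25 FPKM in vehicle and 73.7, 44.9 and 7.36 FPKM in PTH. PTH replicate 3 lay just above the highest vehicle library. Its log2 fold change was 2.08 ± 0.73 (SE; limma, adjusted p = 0.097). *Prtn3*, proteinase 3, had 4.93, 6.78 and 3.22 FPKM in vehicle and 43.5, 31.8 and 6.59 FPKM in PTH. *Ctsg*, cathepsin G, had 1.58, 3.25 and 2.65 FPKM in vehicle and 24.1, 20.1 and 1.97 FPKM in PTH. For *Prtn3* and *Ctsg*, PTH replicate 3 lay within the vehicle range, and the adjusted p-values from limma were 0.079 and 0.157. Without PTH replicate 3, 3 of these 8 genes were called higher, beside 179 genes called higher in the whole fit. *Gfi1* and *Myb*, transcription factor genes of early precursors named after their values were seen, had mean levels of 2.03 and 3.69 FPKM in vehicle and 0.986 and 1.72 FPKM in PTH. Their log2 fold changes were -0.63 and -0.86, with unadjusted p-values of 0.018 and 0.042 and adjusted p-values of 0.083 and 0.135 (limma). *Prss57*, *Ctsc* and *Cebpa*, which make up the rest of the list, had log2 fold changes of 0.021, -0.15 and 0.12 (adjusted p = 0.928, 0.443 and 0.587, limma).

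Among the 11 other specific granule genes tested, 1 was called, with a median log2 fold change of 0.99. *Hp*, haptoglobin, had 4.13, 4.19 and 3.60 FPKM in vehicle and 15.99, 13.6 and 11.6 FPKM in PTH, a log2 fold change of 1.56 ± 0.14 (SE; limma, adjusted p = 0.013). *Hp* was also measured at 4.01 to 5.45 FPKM in MC3T3-E1 cells, where the members were at or near 0. *Chil3*, chitinase-like 3, had 9.99, 11.2 and 10.5 FPKM in vehicle and 47.2, 34.0 and 10.1 FPKM in PTH (adjusted p = 0.140, limma). *Wfdc21*, a whey acidic protein family gene, had 4.76, 7.78 and 3.56 FPKM in vehicle and 20.1, 14.7 and 6.79 FPKM in PTH (adjusted p = 0.090, limma). For both, PTH replicate 3 lay within the vehicle range. All 11 genes had PTH replicates 1 and 2 above the highest vehicle library, and 5 had replicate 3 above it as well. Over all genes tested those shares were 23.9% and 37.9%.

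Among the 14 other late genes tested, 5 were called higher, 2 of them after entering the fit through PTH libraries alone. The median log2 fold change of the 14 was 0.91. *Mmp8*, neutrophil collagenase, had 1.46, 1.42 and 1.67 FPKM in vehicle and 5.67, 5.39 and 4.02 FPKM in PTH, a log2 fold change of 1.25 ± 0.16 (SE; limma, adjusted p = 0.014). *Il1b*, the cytokine interleukin 1 beta, had 2.10, 2.31 and 2.51 FPKM in vehicle and 10.7, 10.7 and 6.98 FPKM in PTH, a log2 fold change of 1.64 ± 0.18 (SE; limma, adjusted p = 0.013). *Trem1*, an activating receptor of myeloid cells, had 0.611, 1.27 and 0.830 FPKM in vehicle and 4.47, 5.05 and 2.34 FPKM in PTH (adjusted p = 0.024, limma). For these 3 genes PTH replicate 3 was well above the vehicle libraries. *Clec4d* encodes a C-type lectin receptor and *Csf3r* the receptor for granulocyte colony-stimulating factor. Their log2 fold changes were 1.25 and 1.05, with adjusted p-values of 0.023 and 0.042 (limma). Both had entered the fit through PTH libraries alone, so nothing is read from these 2 calls. *Cxcr2*, the chemokine receptor of mature neutrophils, named after its values were seen, had 0.993, 1.19 and 1.11 FPKM in vehicle and 1.18, 1.23 and 0.905 FPKM in PTH. Of the 14 genes, 10 had PTH replicate 3 above the highest vehicle library, against 2 of the 8 other azurophil-stage genes. Over all genes tested that share was 37.9%. That difference between lists was not tested. The lists also hold genes measured in MC3T3-E1 cells. *Cebpa*, which is among those 2 azurophil-stage genes, had 11.9 to 22.8 FPKM there and *Prss57* 1.08 to 1.69 FPKM. *Mmp9* of the late list had 8.69 to 10.3 FPKM there.

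**Figure D3:**
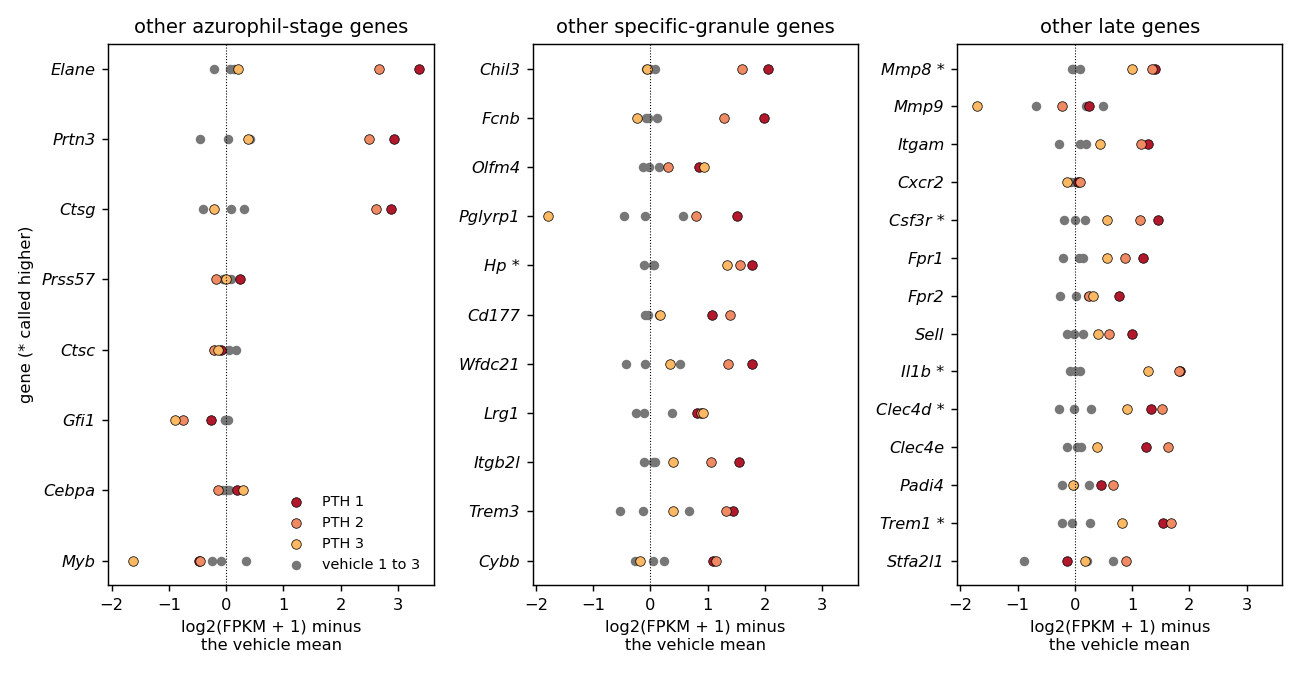
Shift of each other neutrophil gene tested, as log2(FPKM + 1) minus the mean of the vehicle libraries, in panels for the azurophil stage, specific granule and late lists. Grey points are vehicle libraries, coloured points PTH replicates, and an asterisk marks the 6 genes called higher. *Prtn3* and *Ctsg* have PTH replicate 3 among the vehicle points and *Elane* has it next to them, while *Mmp8* and *Il1b* have all 3 PTH points to the right of them.

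Genes by which stromal cells act on the production and release of neutrophils were also listed. Of the 7 tested of 10 listed, none was called in either direction by limma, and none at an unadjusted p with a 2-fold difference. Over all genes tested, 0.869% were called higher and 3.78% lower, or 1.24% and 4.35% at an unadjusted p. Nothing is therefore read from the lack of calls among 7 genes. *Cxcl2*, a neutrophil chemoattractant, had the largest log2 fold change at 0.60 ± 0.23 (SE; adjusted p = 0.119). *Cxcl1*, of the same family, had 31.7, 24.1 and 24.6 FPKM in vehicle and 28.5, 32.5 and 36.6 FPKM in PTH, and *Il6* had means of 5.46 ± 1.14 and 8.05 ± 3.71 FPKM (SD, n = 3). *Cxcl12* and *Csf3* were named after their values were seen. *Cxcl12*, which holds neutrophils in the marrow, had 22.4 to 28.5 FPKM in vehicle and 23.4 to 29.02 FPKM in PTH. *Csf3*, granulocyte colony-stimulating factor, was listed at 0.406 FPKM in 1 vehicle library and at 0 in the other 5 sorted libraries.

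Markers of other blood cells moved between the same libraries, some with the members and some the other way. The 6 megakaryocyte markers summed to 3.51 to 7.34 FPKM in vehicle and to 186, 149 and 6.47 FPKM in PTH replicates 1, 2 and 3. Of the 6, 3 were higher in PTH without overlap, beside 19.5% of all genes tested. Their main gene *Pf4*, platelet factor 4, was at 136, 105 and 0.587 FPKM in PTH, against 1.65 to 3.14 FPKM in vehicle. The 6 T cell markers summed to 87.5 to 136 FPKM in vehicle and to 12.3, 17.5 and 0.716 FPKM in PTH, with 4 lower without overlap. *Cd3g*, a subunit of the T cell receptor complex, was listed at 0 in PTH replicate 3. The 3 pan-leukocyte markers summed to 115 to 194 FPKM in vehicle and to 49.7, 45.1 and 5.24 FPKM in PTH, all 3 lower without overlap. No share of all genes lower without overlap is given, so nothing is read from the counts of lower markers. *Ptprc*, which encodes the CD45 protein that the sort selected against, was at 56.9, 59.2 and 35.9 FPKM in vehicle and 10.1, 8.53 and 0.930 FPKM in PTH. The members were thus highest in libraries where *Ptprc* was intermediate.

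The remaining marker lists had smaller gaps between the groups. Monocyte and macrophage markers, 10 genes, summed to 19.1 to 27.8 FPKM in vehicle and to 28.05, 30.9 and 13.1 FPKM in PTH, 1 of them higher without overlap. B cell markers, 6 genes, summed to 4.52 to 5.28 FPKM in vehicle and to 5.87, 5.17 and 3.08 FPKM in PTH, with 1 lower without overlap. Erythroid markers, with 5 of 6 genes in the files, summed to 187 to 234 FPKM in vehicle and to 249, 307 and 194 FPKM in PTH, with 1 higher. Eosinophil, mast cell and basophil markers, 6 genes of which 2 were listed at 0 throughout, summed to 50.4 to 85.9 FPKM in vehicle and to 42.9, 36.4 and 7.22 FPKM in PTH, with 1 lower. Nothing is read from these counts without overlap. Over all genes tested 19.5% were higher in that way, and no share is given for lower. PTH replicate 3 had the lowest sum of the 6 libraries for the pan-leukocyte, monocyte, T cell, B cell and eosinophil lists. The part of these differences in the levels of the members was not tested.

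**Figure D4:**
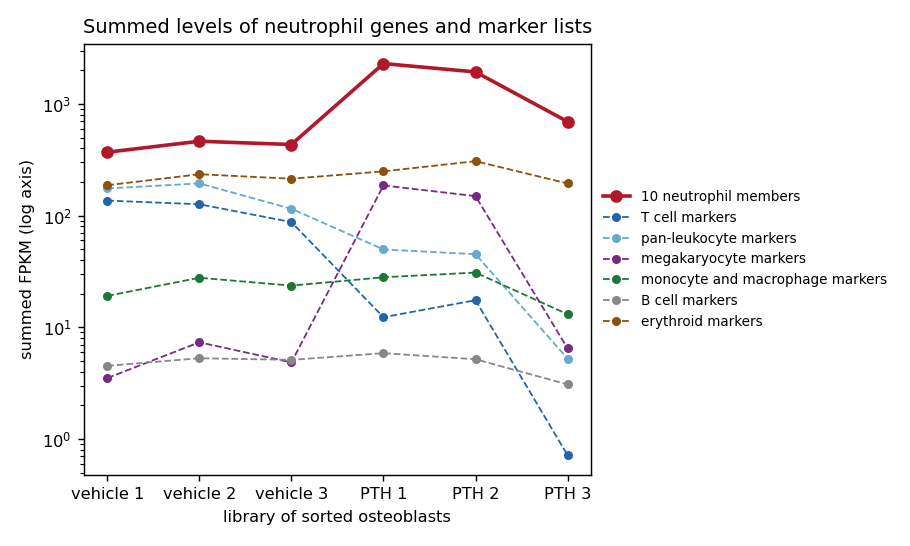
Summed FPKM (log axis) of the 10 members and of 6 lists of blood cell markers in each of the 6 sorted libraries; lines only join the points of a list. The members and the megakaryocyte markers are highest in PTH replicates 1 and 2, and T cell and pan-leukocyte markers are highest in the vehicle libraries.

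The genes whose pattern over the 6 sorted libraries was most like that of the members were named by Pearson's r of log2(FPKM + 1) with the member mean, among 818 other genes that spanned at least 2 log2 units. These were *Ppbp*, *Itga2b*, *Lect1*, *Prtn3*, *Elane*, *F2rl2*, *Plek* and *Tmem40*, with r from 0.970 to 0.997. The points are libraries that share their groups, so r is a description. *Ppbp*, a chemokine gene of platelets, had 0, 0.456 and 0 FPKM in vehicle and 23.3, 20.2 and 1.15 FPKM in PTH. *Itga2b*, the platelet integrin alpha IIb, had 0.145 to 0.308 FPKM in vehicle and 13.2, 12.3 and 0.484 FPKM in PTH. *Lect1*, chondromodulin of cartilage, had 1.78 to 3.33 FPKM in vehicle and 13.1, 13.4 and 3.997 FPKM in PTH. Each member had r of 0.956 (*Cebpe*) to 0.999 (*Ltf*) with the mean of the other 9 members, a closeness that the choice of members favours.

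MC3T3-E1 cells gave a reference without marrow. Over the 10 members and 6 libraries, 39 of the 60 values were listed at 0, and 1 was at least 1 FPKM. *S100a9*, *Ngp*, *Retnlg*, *Ms4a3* and *Cebpe* were listed at 0 in all 6 libraries. *Mpo* reached at most 0.017 FPKM, *Ltf* 0.031 FPKM, *Lcn2* 0.325 FPKM and *S100a8* 0.663 FPKM. *Camp* was the highest, at 0.900, 0.454 and 0.992 FPKM in mock cells and 0.306, 1.14 and 0.919 FPKM in *Slpi* cells. The summed member level was 1.16 ± 0.392 FPKM in mock and 1.30 ± 0.546 FPKM in *Slpi* cells (SD, n = 3 each), beside 369 to 463 FPKM in the vehicle libraries of sorted osteoblasts. The experiments were processed apart and, per the labels, with different library kits, so these levels stand side by side without a test.

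*Slpi* itself differed between the MC3T3-E1 groups in the direction of their labels, with 386 ± 9.20 FPKM in mock and 1975.5 ± 129 FPKM in *Slpi* cells (SD, n = 3 each). The log2 fold change was 2.35 ± 0.049 (SE; limma, adjusted p = 3.9e-08). Of all 11466 genes tested in these cells, 1.12% were called in either direction. Only *Camp* of the 10 members reached the level needed for that test. It was not called by limma and had a log2 fold change of -0.01 ± 0.19 (SE; adjusted p = 0.960, unadjusted p = 0.950). The other 9 members were too low for a difference between mock and *Slpi* cells to be detected.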

How the data were processed

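Total RNA was sequenced from 6 libraries of sorted osteoblasts and 6 of MC3T3-E1 cells. Per the study's methods, 75-base single-end reads were mapped to mm10 with TopHat 2.0.13, Bowtie2 2.2.3 and SAMtools 0.1.19, and the authors computed FPKM with Cuffnorm (Cufflinks 2.2.1). The deposited FPKM values, 1 file per library, are normalized and hold no counts, so no counting interval could be given. The labels name a SMART-Seq v4 kit for sorted cells and a TruSeq stranded kit for MC3T3-E1 cells, and each experiment was fitted alone.

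Values were taken as log2(FPKM + 1) and fitted with limma 3.58.1 in R 4.3.3 (empirical Bayes with trend) over genes that reached an FPKM of 1 in 1 or more of the 6 libraries. A call needed a 2-fold difference at a Benjamini-Hochberg adjusted p under 0.05. Tested on simulated data, the fit called 186 of 200 genes changed by 2 log2 units for PTH versus vehicle, and 0 of the 12804 unchanged genes. For Slpi versus mock it called 200 of 200 and 2 of the 11266 unchanged genes. The simulation gave both groups the spread of the vehicle or mock libraries. It changed only genes whose mean log2(FPKM + 1) was above 2 there. The PTH libraries were more spread than the vehicle libraries, so these counts do not give the error rates of that contrast. The study's methods give different mice as its biological replicates. The labels do not say whether the MC3T3-E1 libraries came from separate cultures, so p-values there measure the spread between libraries, which may be technical.

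The members and gene lists were chosen with earlier results of these data known, and the lists are not independent evidence. Named genes are the 10 members, every gene of the neutrophil and niche lists that was called, the 3 with the largest change in each list, and the 8 genes most like the members. Gfi1, Myb, Prss57, Ctsc, Cebpa, Cxcr2, Cxcl12, Csf3, Pf4, Cd3g, Ptprc and Prg2 fall outside this rule and were picked after their values were seen. Chil3 and Wfdc21 were matched through older symbols, and Ly6g and 1 erythroid marker had no match. Promoters came from RefSeq (GRCm38.p6), with 9 of the 10 members matched.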

Additional observations from a re-analysis of the deposited data

How the results depend on the processing

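The members' log2 differences between PTH and vehicle kept their direction in all 80 values under a pseudocount of 0.1, quantile normalization and the removal of each library, and ranged from 0.73 to 3.04. The members were chosen as higher in these same PTH libraries, so the kept direction was favoured in advance and is only a description. Their median ranged from 1.39 to 2.27 when 1 library was left out. The early minus late difference was 0.29 to 0.59 in PTH replicate 1, 0.28 to 0.58 in replicate 2 and -0.40 to -0.10 in replicate 3 when 1 library was left out. With a pseudocount of 0.1 it was 1.03, 1.01 and 0.10, and after quantile normalization it was 0.16 in replicate 3. Other neutrophil genes called higher numbered 12 without adjustment of p and 10 after quantile normalization, and 0 to 17 when 1 library was left out. Over all genes, 113 were called higher and 491 lower. The count higher was 182 with a pseudocount of 0.1 and 172 after quantile normalization. When 1 library was left out, the counts were 0 to 179 higher and 0 to 527 lower. Without vehicle replicate 1, limma called 1 gene higher and 0 lower (162 and 512 with the same fold at an unadjusted p), and without vehicle replicate 2 it called 0 and 0 (133 and 482). In MC3T3-E1 cells 84 genes were called higher and 44 lower, or 136 and 125 with a pseudocount of 0.1, and 80 to 89 and 39 to 48 when 1 library was left out. The causes were not tested.

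Pairing of same-numbered libraries was weak at most. The correlation of their deviations from the group means was 0.029, 0.073 and 0.10 in sorted osteoblasts. There each vehicle library correlated best with its own number, but PTH replicate 1 correlated better with vehicle replicate 2 (0.069). In MC3T3-E1 cells the correlation was -0.052 to 0.039, and not every library correlated best with its own number. With the replicate number as a block, 116 genes were called higher and 517 lower with PTH, and 8 other neutrophil genes were called higher. Depth in reads is unknown, and members at or near 0 in MC3T3-E1 cells could not be compared there.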

Other observations

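*Slpi*, which granulocytes also express, had 1.64, 2.38 and 2.62 FPKM in the vehicle libraries of sorted osteoblasts and 37.5, 19.8 and 27.2 FPKM in PTH replicates 1, 2 and 3. Its lowest PTH library was replicate 2, whereas each of the 10 members was lowest in replicate 3. *Prg2*, a granule protein gene of eosinophils, had 10.9, 5.05 and 3.15 FPKM in vehicle and 34.0, 26.9 and 6.73 FPKM in PTH, the same order of PTH libraries as the members. The eosinophil, mast cell and basophil list that holds *Prg2* went the other way as a whole, with sums of 50.4 to 85.9 FPKM in vehicle and 42.9, 36.4 and 7.22 FPKM in PTH. Of its 6 genes, 0 were higher without overlap, beside 19.5% of all genes tested. These genes were picked after their values were seen, and no test was made.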
